A study of Saccharomyces cerevisiae with 12 samples.

Results

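The 10 genes described here encode the high-affinity iron uptake machinery of the yeast surface: FRE1, FRE2 and FRE3, FET3 and FTR1, FIT1, FIT2 and FIT3, and ARN1 and SIT1. They were taken by their systematic names (YLR214W, YKL220C, YOR381W, YMR058W, YER145C, YDR534C, YOR382W, YOR383C, YHL040C and YEL065W), out of 6256 genes with a probe on the array. All 10 passed the filter on dim probes, as did 6083 of the 6256.

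Yeast takes up iron at the plasma membrane in several ways. Ferric reductases turn ferric into ferrous iron, which the multicopper oxidase Fet3 re-oxidises and passes to the permease Ftr1, while Arn1 and Sit1 carry iron still bound to siderophores, helped by the Fit mannoproteins of the cell wall. When iron is scarce, the transcription factor Aft1, with its paralog Aft2, switches these genes on.

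The data come from 3 strains of Saccharomyces cerevisiae built on MT8-1X, which ferments xylose, each sampled after 6 h with 0 or 70 mM furfural, an aldehyde that forms when plant biomass is pretreated and that inhibits fermentation. The control strain is labelled MT8-1X/404-405, the TAL strain MT8-1X/TAL-405 and the TAL-ADH strain MT8-1X/TAL-ADH, with no introduced gene or promoter named in the labels. Each of the 6 groups has 2 runs, each measured on 1 single-colour array, so 12 arrays in all. Nothing in the labels tells if both runs came from different cultures, so p-values here reflect the spread among these samples, possibly technical.

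On each array 94.8% to 97.9% of the spots for genes were well above background; precision is limited by the number of arrays. Before any result, the arrays need a caution, since they form 2 sets that do not follow strain or dose. Along the leading principal component (61.5% of the variance) the exposed control arrays and all TAL arrays had scores of 31.6 to 54.9, and the unexposed control arrays and all TAL-ADH arrays -47.0 to -39.1. The arrays labelled TAL 0 mM thus lay with exposed arrays and those labelled TAL-ADH 70 mM with unexposed ones. The reason was not tested, and results that use them are given by label. The transaldolase gene TAL1, a check of the strain labels, had mean log2 levels of 2.58 and 0.71 in the control strain at 0 and 70 mM and of 2.82 to 4.02 in the other strains, with the unexposed control arrays (up to 2.81) overlapping those of TAL at 70 mM (from 2.77). At 0 mM, TAL1 did not separate TAL (3.44 to 3.98) from TAL-ADH (3.65 to 3.96). At 70 mM the TAL arrays (2.77 to 2.87) lay below those of TAL-ADH (3.58 to 4.46). ADH1, a gene for the main alcohol dehydrogenase, was at 4.65 and 5.18 on the arrays labelled TAL 0 mM, 4.37 and 4.70 on TAL 70 mM, 5.01 and 6.38 on TAL-ADH 0 mM, and 5.98 and 6.20 on TAL-ADH 70 mM. In the control strain ADH1 was at 5.12 to 6.38, overlapping the TAL and TAL-ADH arrays. Each of the 3 slides carried 4 arrays and so a pair of groups: unexposed control with exposed TAL-ADH, exposed control with exposed TAL, and unexposed TAL with unexposed TAL-ADH. The last 2 of these pairs are comparisons made below, and the first, which differs in both strain and dose, is not. In the other comparisons of a pair of groups, slide and group cannot be told apart.

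A level is the log2 processed intensity of a gene's probe relative to the 75th percentile of its array, so levels of 1 gene can be compared between arrays but not levels of different genes. All 840 spots of the 10 genes were well above background and none was saturated. The median SD between the 7 spots of a probe was 0.0437 to 0.0683 log2 depending on the gene, while the SD between the runs of a group was 0.08 for FRE1 and 0.32 to 0.50 for the other 9. Changes are given as log2 with the standard error (SE) of a limma fit on the 6 group means, and a gene is said to have risen or fallen where its Benjamini-Hochberg adjusted p over the 6083 genes was under 0.05.

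Of the reductases, FRE3, which acts on iron bound to siderophores, had the widest difference between groups. In the control strain its level was -2.13 and -2.01 without furfural and -0.10 and 0.34 with it. In TAL it was 0.44 and 0.22 without furfural and 0.06 and 0.32 with it, and in TAL-ADH -1.30 and -2.17, then -1.65 and -2.06. FRE3 was thus low on all arrays of control 0 mM and both TAL-ADH groups and high on the other 6 arrays, with no overlap between those sets and overlap among the groups within each. The leading principal component of all genes (61.5% of the variance) divides the arrays into the same sets. The division is thus not particular to FRE3, though how many other genes divide this way was not counted.

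FRE1, the major surface reductase together with FRE2, varied least. Its 12 levels ran from -1.22 to -0.59, and both arrays of the control strain at 70 mM stood at -1.22, below every other array. FRE2 ran from -2.48 to -1.24, and its levels in the control strain were -2.39 and -1.98 without furfural and -2.42 and -1.24 with it. The 2 runs of FRE2 at 70 mM enclosed both unexposed runs.

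FET3, the multicopper oxidase, was at -2.80 and -2.25 in the control strain without furfural and at -1.51 and -0.19 with it. In TAL it was at -2.37 and -1.72, then -1.59 and -0.91, and in TAL-ADH at -3.26 and -3.22, then -2.56 and -2.52. Its group means ran upward from TAL-ADH 0 mM, TAL-ADH 70 mM, control 0 mM, TAL 0 mM and TAL 70 mM to control 70 mM. TAL-ADH 70 mM overlapped control 0 mM, control 0 mM overlapped TAL 0 mM, and TAL 70 mM overlapped control 70 mM, but within each strain the exposed arrays stood above the unexposed ones.

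FTR1, the permease that works in a complex with Fet3, did not follow it. Its levels were -1.59 and -1.23 in the control strain without furfural and -1.81 and -0.93 with it, -1.49 and -0.87, then -1.83 and -1.23 in TAL, and -1.05 and -0.77, then -0.95 and -1.13 in TAL-ADH. The exposed and unexposed arrays of FTR1 overlapped in every strain.

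Of the cell wall mannoprotein genes, FIT1 divided the arrays as FRE3 and the leading principal component of all genes did. In the control strain it was at -2.59 and -2.34 without furfural and at -1.02 and -0.50 with it. In TAL it was at -0.64 and -1.02, then -0.60 and -0.43, and in TAL-ADH at -1.30 and -2.07, then -2.11 and -2.53. The 6 arrays of control 70 mM and the TAL groups were all above the other 6, by the smallest margin between TAL or control at -1.02 and TAL-ADH 0 mM at -1.30.

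FIT3 was at -1.12 and -0.20 in the control strain without furfural and at 0.35 and 1.20 with it. In TAL it was at -0.29 and 0.17, then -0.09 and 0.68, and in TAL-ADH at -0.90 and -0.55, then -1.02 and -0.37. The highest FIT3 level was on a control array at 70 mM, and outside the control strain the exposed and unexposed arrays overlapped. FIT2, whose locus adjoins that of FIT3 on chromosome XV, was at -3.70 and -3.56, then -3.30 and -2.47 in the control strain, at -3.42 and -3.47, then -3.08 and -2.33 in TAL, and at -4.14 and -3.59, then -3.46 and -3.26 in TAL-ADH. Within each strain both exposed arrays had more FIT2 than both unexposed ones.

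Of the siderophore transporter genes, ARN1 was highest on the arrays labelled TAL 0 mM, at -0.80 and -0.46. It was at -1.56 and -0.78 in TAL at 70 mM, at -2.98 and -2.46, then -2.51 and -1.31 in the control strain, and at -2.50 and -2.97, then -2.83 and -2.60 in TAL-ADH. All 4 TAL arrays were above both unexposed control arrays and the 4 TAL-ADH arrays, and TAL 70 mM overlapped control 70 mM. SIT1 ranged less, from -3.16 to -1.57, with -3.16 and -2.43 in the control strain without furfural and -2.36 and -1.57 with it. Its other groups lay between -2.80 and -1.93.

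**Figure D1:**
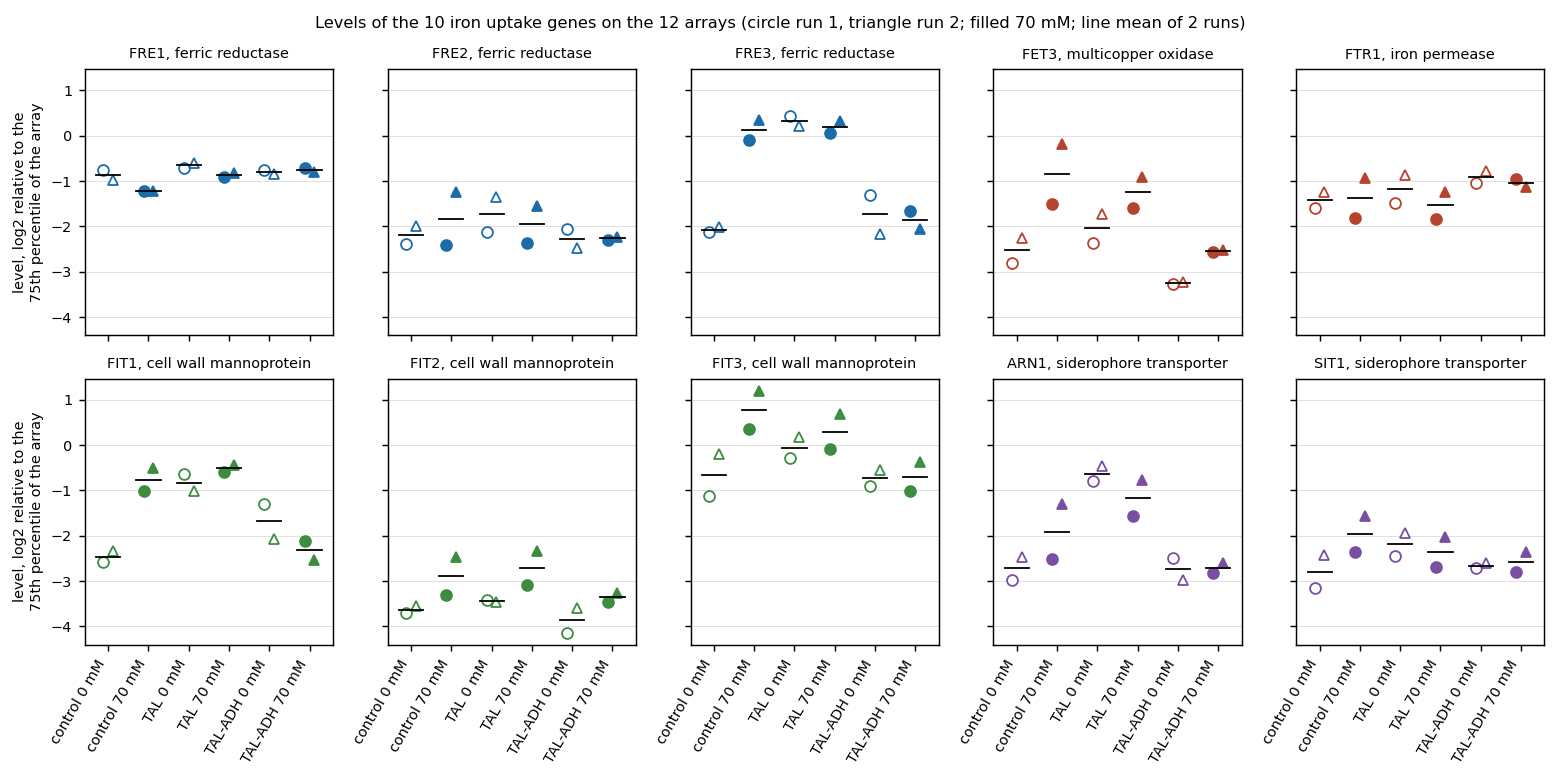
Levels of the 10 genes on the 12 arrays, 1 panel per gene; the y axis is log2 relative to the array's 75th percentile, circles are run 1 and triangles run 2, filled symbols are 70 mM furfural and lines are means of 2 runs. FRE3 and FIT1 are high in control 70 mM and both TAL groups and low in the other 3 groups, while FRE1 spans only -1.22 to -0.59. Levels are not comparable between panels.

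Across the 10 genes, run 2 was above run 1 in 6 of 6 groups for FET3, FIT3 and SIT1, in 5 of 6 for FTR1, FIT2, FRE2 and ARN1, and in 3 of 6 for FIT1, FRE1 and FRE3. In the control strain at 70 mM, run 2 exceeded run 1 by 1.32 for FET3, 1.20 for ARN1 and 1.18 for FRE2. What part the run had in the results below was tested only by leaving out arrays and by a fit with the run as a block.

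The first comparison sets 70 against 0 mM furfural in the control strain. Its groups lay on different slides, so furfural and slide cannot be told apart. FRE3, FIT1, FET3 and FIT3 rose and none of the 10 fell. FRE3 rose by 2.19 ± 0.31 (SE, 4.57-fold, adjusted p = 0.00103), FIT1 by 1.70 ± 0.32 (3.25-fold, adjusted p = 0.00376), FET3 by 1.68 ± 0.44 (3.20-fold, adjusted p = 0.0164) and FIT3 by 1.43 ± 0.44 (2.70-fold, adjusted p = 0.031). So 4 of 10 rose, where 14.0% of all 6083 genes did and 21.5% fell. The 4 were 1 reductase, the oxidase and 2 of the 3 mannoproteins.

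The 6 others did not pass. SIT1 (0.83 ± 0.38, adjusted p = 0.12), FIT2 (0.74 ± 0.34, adjusted p = 0.122) and ARN1 (0.81 ± 0.42, adjusted p = 0.165) had estimates above 0, with the exposed arrays above the unexposed ones for SIT1 and FIT2, as for 28.5% of all genes, and overlapping with them for ARN1. For FTR1 the change was 0.04, with a 95% interval of -0.76 to 0.84, and for FRE2 0.35, with an interval of -0.64 to 1.35. FRE1 differed the other way, by -0.36 ± 0.18 (adjusted p = 0.154). The median change over the 10 was 0.82, against -0.184 over all genes. After quantile normalization the median over all genes was -0.0641, and that over the 10 is not given here.

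FRE3 and FIT1 held their calls whichever array was left out. FET3 and FIT3 lost theirs without control 0 mM run 1 (adjusted p = 0.11 and 0.21), without control 70 mM run 2 (0.0995 and 0.182) and when the control arrays were fitted alone (0.0658 and 0.0737). Without control 70 mM run 1, ARN1 and FIT2 passed as well. Without the 4 arrays labelled TAL 0 mM and TAL-ADH 70 mM, the same 4 genes passed.

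**Figure D2:**
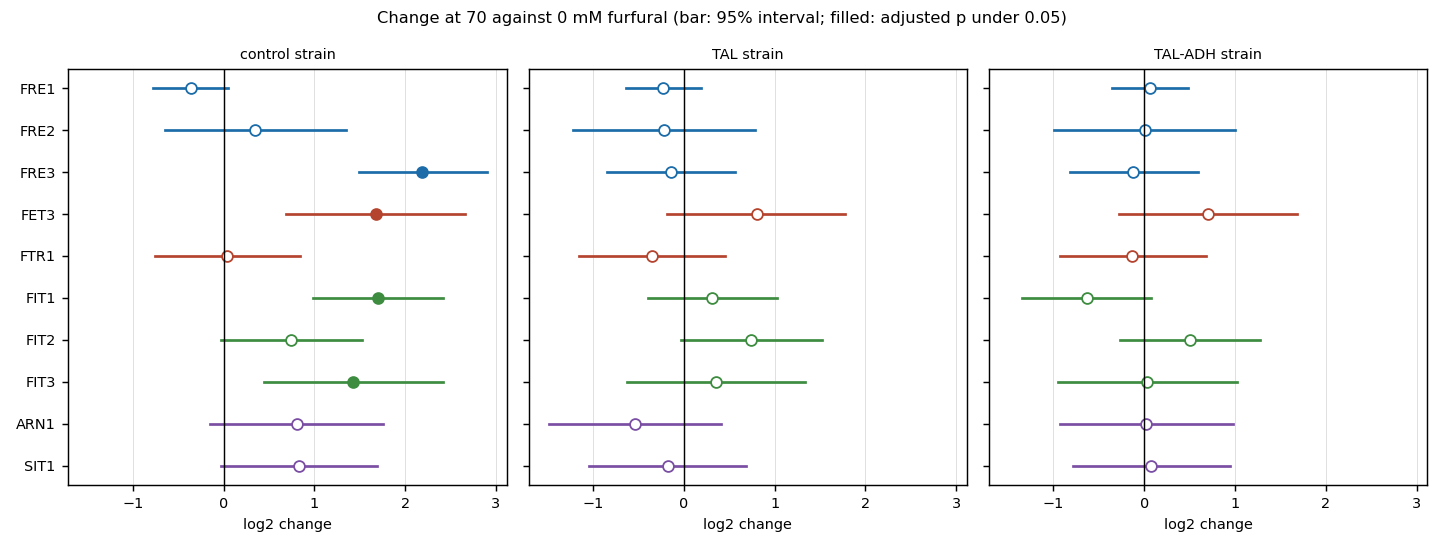
Log2 change between 70 and 0 mM furfural for the 10 genes (x axis), 1 panel per strain, with points for estimates, bars for 95% intervals and filled points for adjusted p under 0.05. FRE3, FIT1, FET3 and FIT3 are filled in the control strain, and in the TAL and TAL-ADH strains every interval includes 0.

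None of the 10 genes passed in the TAL strain or in the TAL-ADH strain, where 0.0986% and 0.0329% of all genes did by limma. None was under an unadjusted p of 0.05 either, against 13.9% and 3.50% of all genes. FRE3 changed by -0.14 in TAL (95% interval -0.85 to 0.56) and by -0.12 in TAL-ADH (-0.82 to 0.59), intervals that leave out its control-strain estimate of 2.19. For FET3 the estimates were 0.80 (-0.19 to 1.78) and 0.70 (-0.28 to 1.68), of which the first includes its control-strain estimate of 1.68 and the second ends at it. FIT2 had its control-strain estimate of 0.74 in TAL too (-0.03 to 1.52) and 0.50 in TAL-ADH (-0.27 to 1.28). Both comparisons hold arrays that lay with arrays of the other dose, TAL 0 mM in the one and TAL-ADH 70 mM in the other.

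The difference between strains in the furfural change was then tested directly. FRE3 responded less in TAL than in the control strain by -2.33 ± 0.44 (adjusted p = 0.0113), 1 of 10 genes where 5.10% of all genes were lower. Leaving out control 0 mM run 1 ended this call (adjusted p = 0.0526). In TAL-ADH, FIT1 responded less than in the control strain by -2.33 ± 0.45 (adjusted p = 0.00853) and FRE3 by -2.31 ± 0.44 (adjusted p = 0.00847), 2 of 10 where 8.40% of all genes were lower. Both calls held with any array left out. These comparisons share the control arrays. For FET3 the differences were -0.88 ± 0.62 and -0.98 ± 0.62 (adjusted p = 0.408 and 0.29), and for FIT3 -1.08 ± 0.62 and -1.40 ± 0.62 (adjusted p = 0.305 and 0.141), so a difference between strains was not shown for them. Between TAL-ADH and TAL no gene on the array differed in the furfural change by limma, and 6.67% had an unadjusted p under 0.05, none of the 10 among them.

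Over the 3 strains together, no gene on the array passed by limma, while 22.7% had an unadjusted p under 0.05. FET3 (1.06 ± 0.27, unadjusted p = 0.00245, adjusted p = 0.121) and FIT2 (0.66 ± 0.19, unadjusted p = 0.00567, adjusted p = 0.144) were the members among them, and these were the 2 members whose exposed arrays stood above the unexposed ones in all 3 strains, as 1.05% of all genes did. With the slide as a term, 216 genes passed, none of them among the 10, and FRE3 had the estimate 2.22 (adjusted p = 0.0603). With this term the estimate combines differences between groups that shared a slide, and no dose change within a strain. It takes the furfural change as equal in the 3 strains, which the tests above did not find for FRE3. It also uses the arrays labelled TAL 0 mM and TAL-ADH 70 mM.

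The strains were next compared without furfural. On the arrays labelled TAL 0 mM, FRE3, ARN1 and FIT1 were higher than in the control strain. FRE3 was higher by 2.40 ± 0.31 (5.29-fold, adjusted p = 0.000687), ARN1 by 2.09 ± 0.42 (4.26-fold, adjusted p = 0.00678) and FIT1 by 1.63 ± 0.32 (3.11-fold, adjusted p = 0.00562). These were 3 of 10, where 14.9% of all genes were higher. The 7 others had estimates from 0.18 (FIT2) to 0.61 (SIT1), all above 0 and none past the test. ARN1 lost its call without control 0 mM run 1 (adjusted p = 0.0604).

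The values of this comparison can be set beside those for furfural in the control strain, with which it shares the unexposed control arrays. ARN1 had 2.09 here and 0.81 there, FRE3 2.40 and 2.19, FIT1 1.63 and 1.70, and FET3 0.48 and 1.68. The arrays labelled TAL 0 mM and those of the exposed control strain lie on different slides and were not compared by a test of their own.

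TAL-ADH minus TAL at 0 mM lies within a slide. ARN1 was lower by 2.11 ± 0.42 on the log2 scale (-2.11, 4.31-fold, adjusted p = 0.00727) and FRE3 by 2.07 ± 0.31 (-2.07, 4.19-fold, adjusted p = 0.00167), 2 of 10 where 13.0% of all genes were lower. FET3 (-1.19 ± 0.44, adjusted p = 0.0746) and FIT1 (-0.85 ± 0.32, adjusted p = 0.0778) did not pass, although both TAL-ADH arrays were below both TAL arrays, as for 29.1% of all genes. The FRE3 call held whichever array was left out, and that of ARN1 ended when TAL 0 mM run 2 (adjusted p = 0.0526) or TAL-ADH 0 mM run 2 (0.0552) was left out. Between TAL-ADH and the control strain at 0 mM none of the 10 passed, where 0.0164% of all genes did. FIT1 had the largest estimate there, 0.78 ± 0.32 (unadjusted p = 0.0356, adjusted p = 0.668), and it alone of the 10 was under an unadjusted 0.05, as were 7.05% of all genes.

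With furfural, TAL and the control strain, again on a shared slide, did not differ past the test in any of the 10, where 0.0822% of all genes passed by limma. None was under an unadjusted p of 0.05, against 16.2% of all genes. The estimate for FRE3 was 0.07 (95% interval -0.64 to 0.77) and for FIT1 0.25 (-0.47 to 0.96), while ARN1 had 0.74 (-0.21 to 1.70).

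TAL-ADH at 70 mM was lower than the control strain at 70 mM in FRE3 (-1.98 ± 0.31, adjusted p = 0.00164), FET3 (-1.69 ± 0.44, adjusted p = 0.0153), FIT1 (-1.55 ± 0.32, adjusted p = 0.00534) and FIT3 (-1.47 ± 0.44, adjusted p = 0.0278). This comparison shares its exposed control arrays with that of furfural in the control strain. These were 4 of 10, where 14.1% of all genes were lower. FET3 and FIT3 lost their calls without control 70 mM run 2 (adjusted p = 0.0933 and 0.168), TAL-ADH 70 mM run 1 (0.0686 and 0.163) or run 2 (0.0704 and 0.0507), and when only the arrays compared were fitted (0.0531 and 0.0529). FIT1 lost its call without TAL-ADH 70 mM run 2 (0.0501). FRE1 was the 1 gene with a difference upward of some size, 0.48 ± 0.18 (adjusted p = 0.0702), and did not pass.

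Against TAL at 70 mM, TAL-ADH was lower in FRE3 (-2.04 ± 0.31, adjusted p = 0.00144), FIT1 (-1.80 ± 0.32, adjusted p = 0.00279), ARN1 (-1.54 ± 0.42, adjusted p = 0.0223) and FET3 (-1.29 ± 0.44, adjusted p = 0.0494). These were 4 of 10, where 13.9% of all genes were lower. ARN1 lost its call without TAL 70 mM run 2, TAL-ADH 70 mM run 1 or TAL-ADH 70 mM run 2. FET3 passed in only 6 of 19 settings, the main fit among them, and 13 alternatives ended its call.

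**Figure D3:**
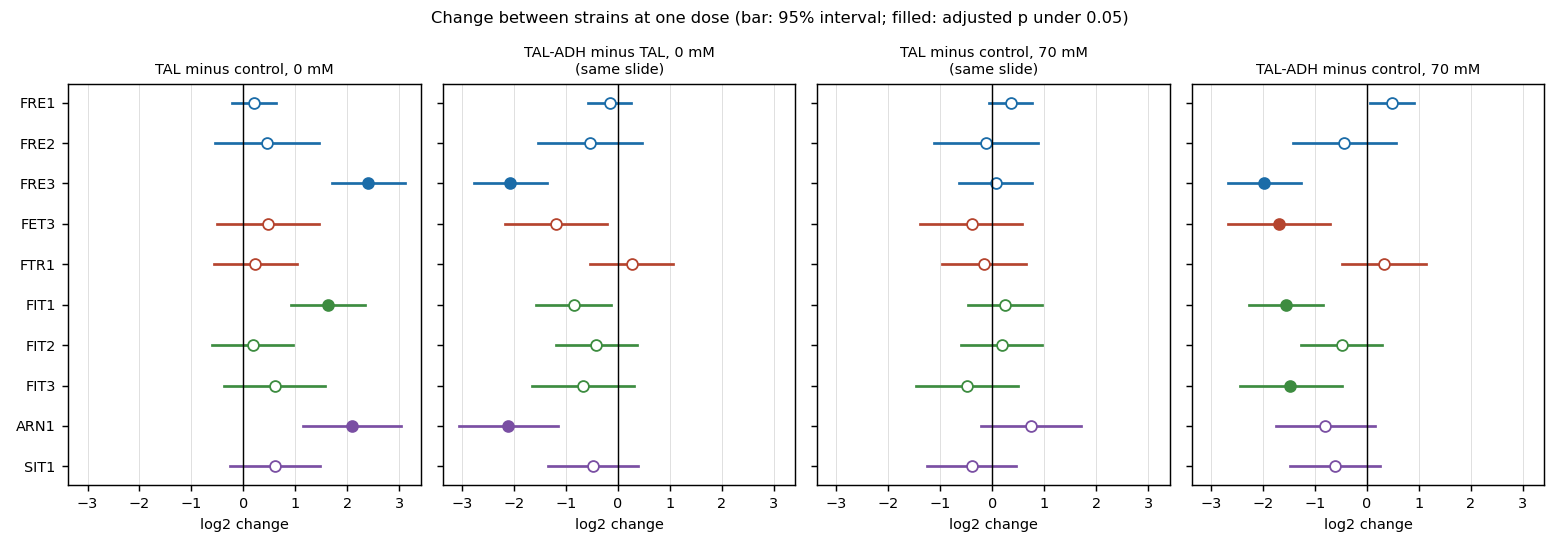
Log2 difference between strains for the 10 genes (x axis) in 4 comparisons, with points for estimates, bars for 95% intervals and filled points for adjusted p under 0.05. FRE3 differs by 2.40, -2.07 and -1.98 in 3 panels and by 0.07 in TAL minus control at 70 mM, where no point is filled.

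The genes next to the members on the chromosome were read as a local reference for the control strain. FIT2, FIT3 and FRE5, a further reductase gene that was too dim to test, follow each other on chromosome XV, and FRE3 is separated from FIT2 by the open reading frame YOR381W-A. Of the 17 neighbours, 14 were tested, and CRR1 beside FRE1 and HSP31 beside FIT1 rose with furfural (0.89 and 1.21, adjusted p = 0.0281 and 0.0456) while none fell. Over all genes, 14.0% rose and 21.5% fell. FRE1 itself had -0.36, and FIT3 and FIT2, which adjoin each other, had 1.43 and 0.74.

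Other genes of the iron regulon were read from a list of 18, of which 17 were on the array and 14 were bright enough to test. In the control strain 4 of the 14 rose with furfural and none fell, where 14.0% of all genes rose and 21.5% fell. The median was -0.14, against -0.184 over all genes. They were ISU2 (3.34 ± 0.38, adjusted p = 0.000324) and ISU1 (2.40 ± 0.43, adjusted p = 0.0031), the scaffold proteins on which iron-sulfur clusters are built, MRS4 (2.36 ± 0.32, adjusted p = 0.000765), an iron carrier of the mitochondrial membrane, and FRE6 (1.27 ± 0.35, adjusted p = 0.0201), a reductase of the vacuole. FRE6 lost its call without either unexposed control array or control 70 mM run 2 (adjusted p = 0.0834 to 0.125), and the 3 others kept theirs in every alternative. TIS11, also called CTH2, which has messengers of iron-using proteins degraded, stood at -0.10 ± 0.55 (adjusted p = 0.902).

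The regulators differed between comparisons. In the control strain, AFT2 (1.38 ± 0.41, adjusted p = 0.0298), YAP5 (1.32 ± 0.28, adjusted p = 0.00665), an activator at high iron, and CTH1 (1.24 ± 0.39, adjusted p = 0.0337), the paralog of TIS11, rose, 3 of 8 with none lower. Of all genes, 14.0% rose and 21.5% fell in that comparison. AFT1 had 0.35 ± 0.24 (adjusted p = 0.294). AFT2 and CTH1 lost their calls when any 1 of the 4 control arrays was left out. Their changes were then 1.07 to 1.68 and 1.03 to 1.46. CTH1 lost its call also without the TAL 0 mM and TAL-ADH 70 mM groups (adjusted p = 0.0538). YAP5 lost its call when the control arrays were fitted alone (adjusted p = 0.0548). On the arrays labelled TAL 0 mM, AFT1 was at -0.55 to -0.40, against -1.70 to -1.65 in the unexposed control strain, a rise of 1.20 ± 0.24 (adjusted p = 0.00688). AFT2 was higher there by 1.69 ± 0.41 (adjusted p = 0.0158), and lost its call without control 0 mM run 2 or TAL 0 mM run 1, with adjusted p up to 0.111.

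**Figure D4:**
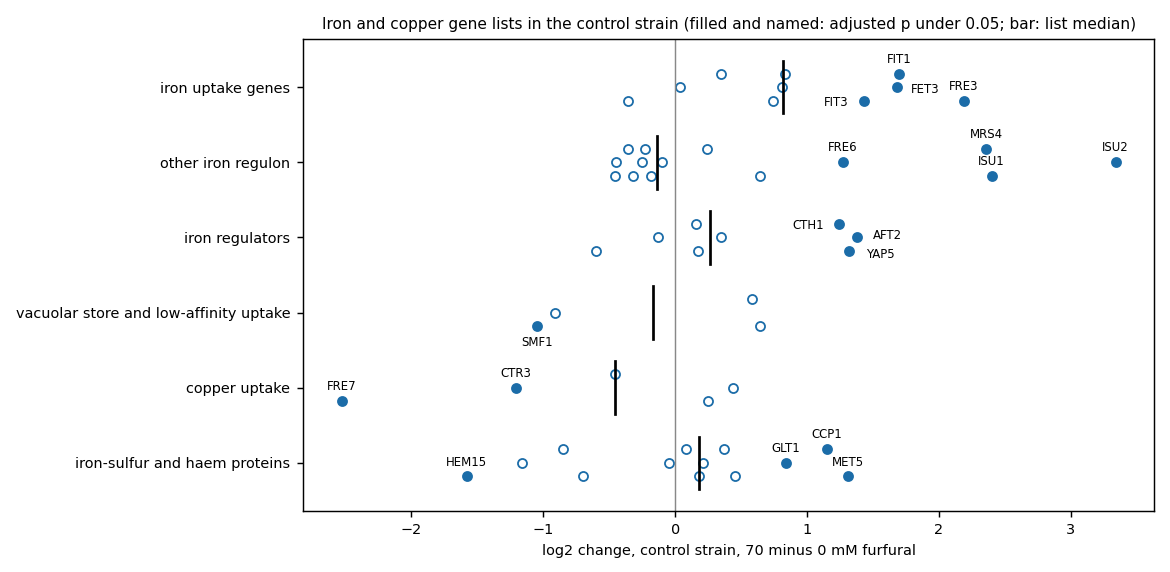
Log2 change with furfural in the control strain (x axis) for the tested genes of 6 lists (rows), where filled and named points passed at adjusted p under 0.05 and black bars are list medians. The 10 iron uptake genes have a median of 0.82 and the other iron regulon genes -0.14, although ISU2 at 3.34 has the largest change drawn.

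The remaining lists cover copper uptake, the iron store and iron-using proteins, again for furfural in the control strain (14.0% of all genes higher, 21.5% lower). Of 5 copper uptake genes, FRE7, a reductase induced when copper is short, fell by 2.53 ± 0.42 on the log2 scale (adjusted p = 0.00216) and CTR3, a copper transporter, by 1.21 ± 0.32 (adjusted p = 0.0187). Of 4 genes of the vacuolar iron store and low-affinity uptake, SMF1, a transporter of manganese and other metals, fell by 1.05 ± 0.28 (adjusted p = 0.0186). Of 13 genes for iron-sulfur and haem proteins, MET5 (sulfite reductase, 1.31 ± 0.36), CCP1 (cytochrome c peroxidase, 1.15 ± 0.22) and GLT1 (glutamate synthase, 0.84 ± 0.25) rose and HEM15 (ferrochelatase, -1.58 ± 0.43) fell. FRE7 and CCP1 kept their calls in every alternative. CTR3, SMF1, MET5, GLT1 and HEM15 each lost theirs without either unexposed control array and without at least 1 exposed one (run 1 for CTR3 and SMF1, run 2 for GLT1 and HEM15, both for MET5), with adjusted p up to 0.157. SMF1 and GLT1 lost theirs also with quantile normalization (0.067 and 0.207), and GLT1 when the control arrays were fitted alone (0.0727).

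None of these lists had a gene past the test for furfural in TAL or TAL-ADH, for TAL-ADH minus control at 0 mM, or for TAL minus control at 70 mM. In these comparisons 0.0164% to 0.0986% of all genes passed. The genes with the largest changes divided the arrays as FRE3 did, and as the leading principal component of all genes does. ISU2 had group means of -1.83 in control 0 mM, -2.72 in TAL-ADH 0 mM and -2.13 in TAL-ADH 70 mM, and of 1.51, 1.02 and 1.35 in control 70 mM, TAL 0 mM and TAL 70 mM. MRS4 stood at -1.61 to -1.17 and at 1.19 to 1.42 in the same groups. FRE7 ran the other way, with means of -1.26 to -0.43 in the first 3 and -4.30 to -3.79 in the others. Within a slide, TAL-ADH minus TAL at 0 mM, ISU2 was lower by 3.74 ± 0.38 on the log2 scale (-3.74, adjusted p = 0.000201), MRS4 by 2.91 ± 0.32 (-2.91, adjusted p = 0.000296) and FRE7 higher by 3.56 ± 0.42 (adjusted p = 0.000441). These 3 calls held in every alternative.

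In that same comparison, where 773 of all 6083 genes were higher and 793 lower, 5 of the 14 other iron regulon genes were lower and 1 higher. Of the 8 regulators, 4 were lower. AFT1 (-0.98 ± 0.24, adjusted p = 0.0182) and AFT2 (-1.49 ± 0.41, adjusted p = 0.0285) were among them, and both lost their calls without either TAL 0 mM array, without TAL-ADH 0 mM run 2 or when only the arrays compared were fitted (adjusted p up to 0.102 and 0.174). TIS11 had -1.45 ± 0.55 (adjusted p = 0.0849). For TAL minus control at 0 mM the counts were 4 higher of the 14, and 3 higher and 1 lower of the 8 (all genes: 909 higher, 819 lower). For TAL-ADH against the control strain at 70 mM they were 1 higher and 4 lower of the 14 and 3 lower of the 8 (all genes: 1370 higher, 856 lower). Against TAL at 70 mM they were 4 lower of the 14 and 4 lower of the 8 (all genes: 1092 higher, 848 lower). AFT2 was lower by the same estimate in both, -1.41 ± 0.41 (adjusted p = 0.0264 and 0.0293), while AFT1 was at -0.30 ± 0.24 (adjusted p = 0.363) and -0.94 ± 0.24 (adjusted p = 0.0176). The AFT2 calls ended without TAL-ADH 70 mM run 2, the first also without control 70 mM run 2 and the second without either TAL 70 mM array (adjusted p up to 0.176 and 0.196). The AFT1 call ended when any of the 4 arrays compared was left out (up to 0.105).

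**Figure D5:**
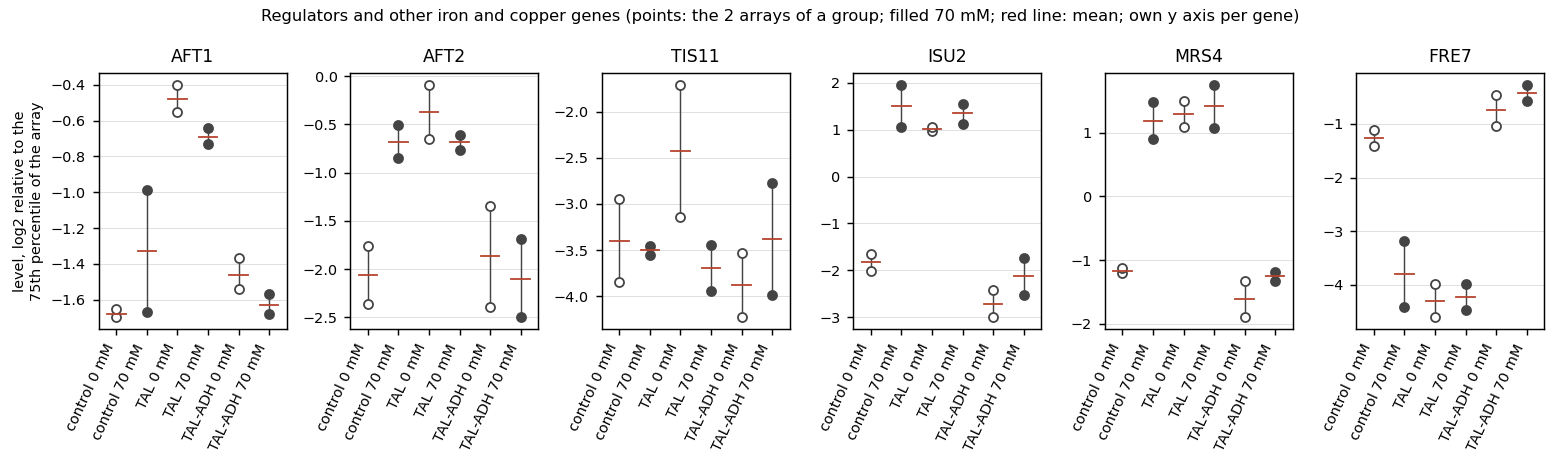
Levels of AFT1, AFT2, TIS11, ISU2, MRS4 and FRE7 in the 6 groups; each y axis is log2 relative to the array's 75th percentile and has its own range, points are the 2 arrays of a group (filled at 70 mM) and red lines are means. ISU2 and MRS4 are high in control 70 mM and both TAL groups, FRE7 is low there, and AFT1 is highest in TAL 0 mM, at -0.55 and -0.40.

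The 10 genes did not share 1 profile over the arrays. Likeness was measured as the root mean square difference between 2 genes' levels, each centred on its own mean over the 12 arrays. The most alike members were FRE2 and SIT1 (0.23 log2), and the least alike FTR1 and FRE3 (1.22). FIT1 was the member nearest to FRE3 (0.39), with 55 other genes nearer to FRE3 than that, and FIT3 was the member nearest to FET3 (0.369), with 16 genes nearer. FTR1 and FET3, whose products form 1 complex, were each nearer to another member. For FRE1 the nearest member was FTR1 at 0.343, and 1327 genes were nearer.

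Over all genes tested, the profiles nearest to FRE3 were MMT1 (0.186) and RPN4 (0.202), and the nearest to FET3 were AVT3 (0.201) and FMP40 (0.239). TPH3 and MPH3 (both 0.227) were nearest to FIT1, EEB1 (0.228) and MAM3 (0.247) to ARN1, and KAE1 (0.0928) and YMR155W (0.123) to FRE2. FIT3 had the nearest profiles YCL021W-A (0.202) and GUT2 (0.208), FIT2 had TIM54 (0.198) and RPO21 (0.204), and SIT1 had YMR262W (0.149) and GTR1 (0.169). For FTR1 they were PHO11 and PCL9 (both 0.164), and for FRE1 DLD2 (0.108) and OSH3 (0.112). A small difference is easier to reach for a gene that varies little, as FRE1 does. The mean profile of the 10 was nearest to TPK2 (0.138), RSF2 (0.149), FZF1 (0.151), SRO77 (0.164) and CWH43 (0.166).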

How the data were processed

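Total RNA of 12 yeast samples was labelled with Cy3 and hybridised to 1 Agilent array each, per the labels. Per the file headers, a scanner file gives each spot's intensity after background subtraction and detrending inside the array, with marks for spots that are saturated, uneven or well above background; Agilent Feature Extraction 10.1.1.1 is named in the submitters' processing notes. The deposited value table is in log2 (column medians -0.17 to 0.0577). That it was scaled to a percentile and centred per probe was inferred from its values, which differed from the scanner values treated that way by 0.00908 or less, so it is not an independent processing.

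Log2 processed intensities were averaged over a probe's usable spots (7 per gene before outliers were dropped) and each array's 75th percentile (2529 to 7414 intensity units) was subtracted. Genes were tested where, in at least 1 group, over 50% of the spots were well above background on both arrays, which left out 173. Using limma 3.58.1 in R 4.3.3, 6 group means were fitted on 6 residual degrees of freedom, or strain plus furfural on 8 for furfural over the 3 strains, in 13 comparisons with p-values adjusted by Benjamini-Hochberg over 6083 genes. The median SE was 0.309 log2, and the fit was tested on simulated data. Since adjustment depends on the other genes of a comparison, equal changes can pass in one and fail in another.

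The 10 genes, the 5 other lists (other iron regulon, iron regulators, vacuolar store and low-affinity uptake, copper uptake, iron-sulfur and haem proteins) and the detection threshold were chosen with earlier results of these data known. All 10 genes are named; of the other lists at most 4 genes per comparison, those past the test with the largest changes, with AFT1, AFT2 and TIS11 always given, TAL1 as a label check (with ADH1, added after its values were seen), the 2 nearest profiles per gene and the 5 nearest to their mean. Gene names and chromosome order come from RefSeq's gene list for assembly R64, which held 5756 of the probes' loci. No sequences were used.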

Additional observations from a re-analysis of the deposited data

Results flagged for a closer look

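In 3 cases a test of the difference between strains found unequal furfural changes. FRE3 changed by 2.19 in the control strain and -0.14 in TAL, a difference of -2.33 ± 0.44 (adjusted p = 0.0113). FRE3 changed by -0.12 in TAL-ADH, which differed from the control strain by -2.31 ± 0.44 (adjusted p = 0.00847), and FIT1 by -0.63, which differed from its control change of 1.70 by -2.33 ± 0.45 (adjusted p = 0.00853). Each rests on a group that lay with arrays of the other dose along the leading principal component, and on groups from different slides. For TAL this was the unexposed group, and for TAL-ADH the exposed one. Why these groups lay there was not tested. Without their arrays the differences have no value.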

How the results depend on the processing

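The alternatives were normexp background correction, quantile normalization, no filter on dim probes, the deposited table and a fit of only the arrays compared. Others were the run number as a replicate block, a slide term where possible, and each array left out in turn. In the 3 comparisons that do not use them, the 4 arrays labelled TAL 0 mM and TAL-ADH 70 mM were left out. For the 38 changes of members that passed in any setting, 693 values were computed: 636 kept the side of the threshold, 35 lost it, 22 gained it and none that had passed turned its sign. With only the arrays compared, 2 members passed for furfural in the control strain and 2 for TAL-ADH minus control at 70 mM, in place of 4 each, while the share of all genes that passed went from 35.4% to 26.7% and from 36.6% to 26.2%. Leaving out 1 array gave 2 to 6 members for furfural in the control strain (18.3% to 37.3% of all genes), 2 to 3 for TAL minus control (12.5% to 30.5%) and 1 to 3 for TAL-ADH minus TAL (11.9% to 26.7%) at 0 mM, 1 to 5 for TAL-ADH minus control (18.7% to 38.2%) and 2 to 4 for TAL-ADH minus TAL (15.6% to 33.7%) at 70 mM. For the furfural effect it gave 0 to 2 for TAL minus control (4.64% to 13.0%) and 2 to 2 for TAL-ADH minus control (8.43% to 22.2%), 0 to 1 for furfural over the strains (0% to 7.10%), and 0 in the other 5 comparisons.

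Deviations of same-numbered arrays correlated at 0.0435 to 0.861 (median 0.429), above 0.1 in 14 of 15 pairs of groups. Runs of equal number thus tended to deviate alike, which the main fit leaves out. The labels do not say that the samples were paired. With the replicate block, 5 members passed for TAL minus control and 4 for TAL-ADH minus TAL at 0 mM and 3 differed in the furfural effect between TAL and control, where 42.9%, 41.1% and 22.2% of all genes passed. For furfural in the control strain it gave 6 (50.2% of all genes), with FIT2 and the siderophore transporter gene SIT1 (0.83, adjusted p = 0.00873) added. With the slide term as well, 1 passed over the strains (FRE3, 2.22, adjusted p = 0.0317, with 10.8% of all genes passing). That estimate again takes the furfural change as equal in all strains, which the tests of the difference did not find for FRE3. What caused these shifts in the calls was not tested. The spread between runs, estimated over all 6 groups together, limits what could be called, as does the adjustment over all genes. With an SE of 0.44, FET3 did not pass at -1.19 in TAL-ADH minus TAL at 0 mM (limma, unadjusted p = 0.0226, adjusted p = 0.0746).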
